A study of Homo sapiens with 6 samples.

Results

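Transcripts of the integrin and laminin subunits were followed across 3 treatments of Huh7 cells, a human hepatoma line that keeps many functions of hepatocytes. The genes were taken by their family names, integrin alpha and beta chains and laminin alpha, beta and gamma chains, and not by how they responded. Of 21299 genes with a probe set annotated to 1 symbol, 37 were such subunits, namely 25 integrin chains (18 alpha and 7 beta) and 12 laminin chains (5 alpha, 4 beta and 3 gamma), and together they held 100 of the 54613 probe sets tested. ITGB6 was not among them, since its probe sets carried several symbols. The statin group received 5 µM of a statin that the labels do not name further, which blocks cholesterol synthesis, the nLDL group received 120 µg/ml of native LDL as a source of cholesterol, and the control group received vehicle. All cells were kept for 24 h in medium with 10% FBS, so the controls also met serum lipoproteins. There were 2 arrays in a group (n = 2 throughout), which the labels call biological replicates, all of 1 cell line.

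Integrins are receptors made of 1 alpha and 1 beta chain that span the plasma membrane and tie the extracellular matrix, or a neighbouring cell, to the actin cytoskeleton. Laminins are cross-shaped trimers of an alpha, a beta and a gamma chain, and form the sheet of basement membrane to which several integrins bind. In the liver, hepatocytes face a sparse matrix that lacks a continuous basement membrane, whereas bile ducts, vessels and many hepatoma lines make laminin.

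The values were log2 values from robust multi-array averaging, so a difference of 1 is a 2-fold change, and each gene was read from the probe set that was brightest when averaged over the 6 arrays. Levels were not compared between probe sets, whose brightness differs for the same amount of RNA. The median of an array lay between 4.84 and 4.91, and the dimmest 40% of probe sets had means up to 4.23. The Huh7 identity was read from 12 hepatocyte markers such as albumin and transthyretin, which all lay at 11.0 or higher, and none of the 12 passed the test of statin or nLDL against control. Of 18 markers of leukocytes, platelets, endothelium and stellate cells, 7 were among the dimmest 40%, and the mean over the 18 was 5.32 and 5.20 on the statin arrays, 5.18 and 5.18 on the nLDL arrays, and 5.18 and 5.17 on the control arrays. LYZ was the brightest of these with a mean of 13.0. None of the 18 passed the test of statin or nLDL against control. For statin against nLDL 1 of the 18 passed, higher with statin, at a limma adjusted p of 0.0416. That was 5.56% of the list, against 3.51% of all genes, and none of the 12 hepatocyte markers passed there. ACTB has probe sets at either end of its transcript, and the excess of the 3′ over the 5′ end, a sign of RNA integrity, was 2.13 and 1.92 on the statin arrays, 1.62 and 1.54 on the nLDL arrays, and 1.63 and 1.64 on the control arrays. This excess was thus larger on both statin arrays, while that of GAPDH was between 0.02 and 0.10 on every array, and the part of either in the differences below was not tested.

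The sequences just upstream of 3 laminin genes are given first, because LAMA4 was the 1 subunit gene that passed the test, and LAMB1 and LAMC1 are the laminin genes with the brightest probe sets. Each run holds the 250 bases before the annotated start, 5′ to 3′ on the strand of the gene, from RefSeq on GRCh38.p14, with CpG dinucleotides in capitals. LAMA4 lies at chr6:112254568-112254817 (minus strand), LAMB1 at chr7:108003162-108003411 (minus strand) and LAMC1 at chr1:183023170-183023419 (plus strand).
LAMA4: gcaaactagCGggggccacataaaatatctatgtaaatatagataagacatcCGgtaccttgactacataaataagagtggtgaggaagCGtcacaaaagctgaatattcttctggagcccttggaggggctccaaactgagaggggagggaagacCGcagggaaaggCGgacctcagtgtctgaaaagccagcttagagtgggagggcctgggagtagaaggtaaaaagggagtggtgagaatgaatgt
LAMB1: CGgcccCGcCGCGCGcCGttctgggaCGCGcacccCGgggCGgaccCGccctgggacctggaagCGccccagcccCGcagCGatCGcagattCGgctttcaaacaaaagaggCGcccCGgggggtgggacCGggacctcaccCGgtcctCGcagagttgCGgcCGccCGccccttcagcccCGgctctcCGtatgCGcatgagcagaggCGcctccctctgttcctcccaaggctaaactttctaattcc
LAMC1: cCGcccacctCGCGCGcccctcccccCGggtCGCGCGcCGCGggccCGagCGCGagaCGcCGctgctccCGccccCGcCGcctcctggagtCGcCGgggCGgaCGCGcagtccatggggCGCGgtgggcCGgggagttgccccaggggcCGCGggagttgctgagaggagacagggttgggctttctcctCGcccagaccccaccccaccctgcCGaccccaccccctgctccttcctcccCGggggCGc

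The LAMA4 window held 5 CpG dinucleotides and was 48.4% G and C, the LAMB1 window held 28 and was 70.4%, and the LAMC1 window held 32 and was 79.6%. Over all 35116 promoter windows of this length the median was 11 CpG dinucleotides and 58.0% G and C, and 34.3% of windows had fewer CpG dinucleotides than LAMA4, against 84.1% for LAMB1 and 90.5% for LAMC1. The GC box GGGCGG, searched on both strands, was found 4 times in the LAMB1 window, 3 times in that of LAMC1 and in no place in that of LAMA4, and 42.6% of all windows held it. The TATA box TATAAA (10.7% of all windows), the sterol regulatory element TCACNCCAC (0.9%), the TEAD site GGAATG (11.9%) and the AP-1 site TGANTCA (6.6%) were not in any of the 3 windows. These matches describe the letters of the windows only. Promoter entries were at hand for 25 of the 37 genes, so no summary over the family was made.

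The brightest integrin probe sets included those of broadly expressed matrix receptors. ITGB1, the beta chain shared by most collagen, laminin and fibronectin receptors, had log2 values of 12.67 and 12.72 with statin, 12.67 and 12.76 with nLDL, and 12.72 and 12.77 in control. The 3 groups overlapped. ITGAV, the alpha chain of the vitronectin receptors, lay at 11.01 and 11.11 with statin, 11.40 and 11.30 with nLDL, and 11.25 and 11.37 in control, so both statin arrays were below the other four. ITGB5, which pairs with ITGAV, lay at 9.76 and 9.81 with statin, 9.80 and 9.68 with nLDL, and 9.74 and 9.65 in control. ITGAE, best known as the chain that lets intraepithelial lymphocytes bind E-cadherin, gave 11.06 and 11.11 with statin, 11.31 and 11.27 with nLDL, and 11.36 and 11.30 in control, and again both statin arrays were the lowest. The pan-leukocyte marker PTPRC was at 4.65 and 4.55 with statin, 4.57 and 4.57 with nLDL, and 4.74 and 4.67 in control. In the RefSeq annotation ITGAE overlaps P2RX5 and HASPIN, and whether its probe set reads transcripts of these was not tested.

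Of the laminin chains, LAMB1 and LAMC1, the beta and gamma chains of the common laminins, had the brightest probe sets. LAMB1 lay at 10.82 and 10.86 with statin, 10.94 and 10.98 with nLDL, and 10.98 and 11.02 in control. LAMC1 lay at 10.74 and 10.68 with statin, 10.67 and 10.68 with nLDL, and 10.72 and 10.75 in control. LAMA5, the alpha chain of the laminins found in most adult basement membranes, was at 9.43 and 9.40 with statin, 9.31 and 9.20 with nLDL, and 9.32 and 9.30 in control. Each of the 3 kinds of chain that a laminin trimer needs was therefore represented by a probe set in the brightest 30% of all probe sets. This bound of 30% was chosen after the data were seen. At the other end, 5 genes were among the dimmest 40%, 2 integrin and 3 laminin chains, with means below 4.23 at which little can be said of their transcripts.

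**Figure D1:**
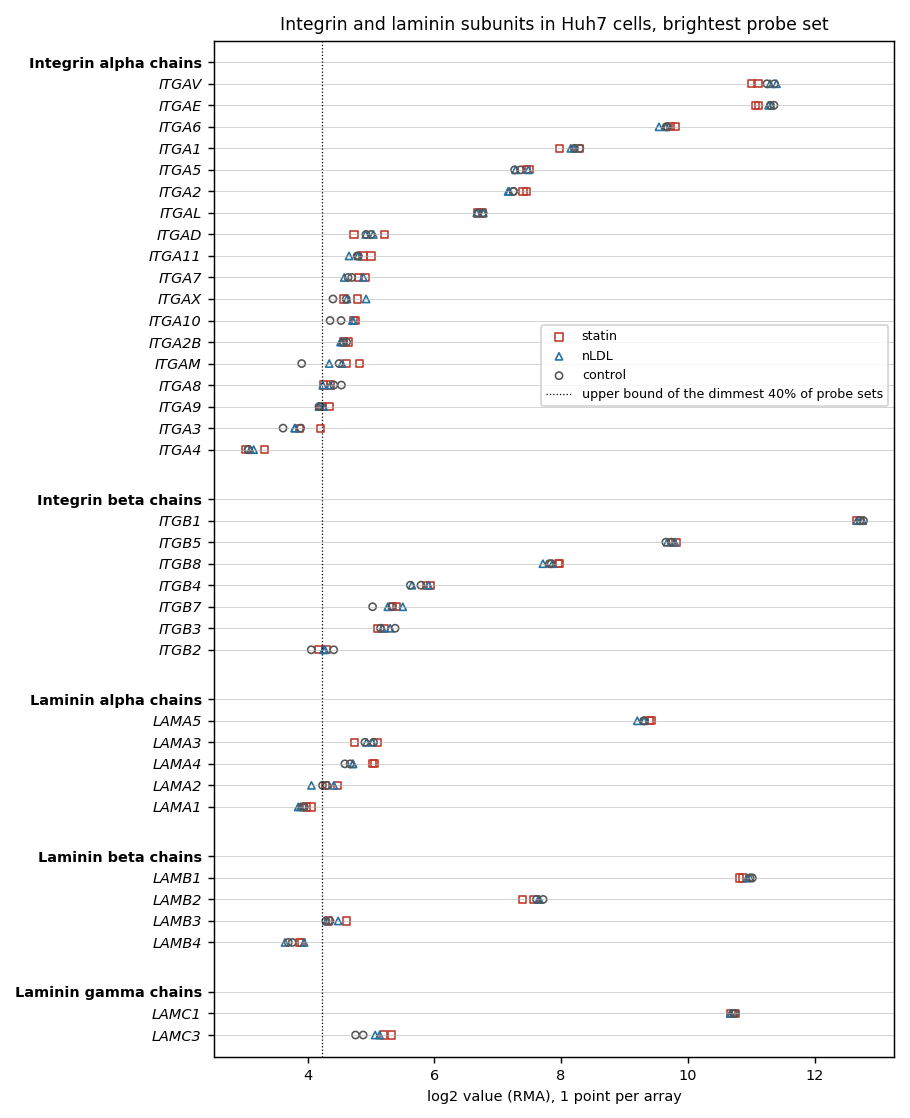
Log2 value of 36 of the 37 integrin and laminin subunit genes on each of the 6 arrays (x axis), with genes grouped by kind of chain (y axis). Squares are statin, triangles nLDL and circles control arrays, and the dotted line at 4.23 bounds the dimmest 40% of probe sets. For most genes the 6 points lie close together, from ITGB1 near 12.7 to ITGA4 near 3.1.

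Statin treatment was compared with control to ask whether depleting cholesterol altered the transcripts of these adhesion genes. LAMA4 rose in statin-treated cells and the other 36 genes did not pass the limma test at an adjusted p of 0.05, so 1 of 37 was called, or 2.70%, where 3.75% of all genes and 2.62% of all probe sets were called (0.956% higher and 1.66% lower). At an unadjusted p under 0.05 there were 8 genes (5 higher and 3 lower), or 21.6%, against 21.9% of all genes and 18.8% of all probe sets. The 2 statin arrays lay wholly above the 2 control arrays for 17 genes, or 45.9%, against 30.3% of all genes, and wholly below for 6, or 16.2%, against 25.1% of all genes. Together this was 62.2%, against 55.4% of all genes. The share of genes called and the share at an unadjusted p under 0.05 were near or below those of all genes, whereas the share of genes with both statin arrays above both controls was larger than that of all genes, a difference that was not tested. The differences ran from -0.25 to 0.51 with a median of 0.10 (0.02 over all genes), and 29 of the 37 lay within 0.2 of 0, or 78.4%, against 72.1% of all genes. The unadjusted 95% intervals had a median half-width of 0.21, and differences larger than this, such as those of LAMC3 and ITGAM below, also missed the adjusted threshold.

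LAMA4 encodes the alpha chain of laminins of vessels, muscle and nerve. It had log2 values of 5.05 and 5.02 with statin, 4.71 and 4.72 with nLDL, and 4.59 and 4.67 in control, and both statin arrays were above the other four. The statin minus control difference was 0.41 ± 0.08 (SE), a fold of 1.33, with a 95% interval of 0.23 to 0.59 and a limma adjusted p of 0.0456. The nLDL minus control difference was 0.08 ± 0.08 with a limma adjusted p of 0.928. The call was close to the threshold and did not hold when any 1 of the 6 arrays was left out, with adjusted p of 0.0876 to 0.238 and differences of 0.36 to 0.45. It was also lost under 8 of the other 10 alternatives. In bulk RNA, a change per cell and a change in the share of cells that express the gene cannot be told apart.

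The 5 probe sets of LAMA4 did not move together. Besides the brightest, the fourth in level was also higher, with 4.09 and 4.02 on the statin arrays, 3.39 and 3.41 on the nLDL arrays, and 3.47 and 3.57 on the control arrays, a difference from control of 0.53 at a limma adjusted p of 0.026, although its mean of 3.66 is among the dimmest 40%. The statin minus control differences of the second, the third and the fifth in level were 0.16, -0.15 and -0.19, and none of these passed. With the mean over all 5 the difference was 0.15. Of the endothelial markers in the list of other cell types, CDH5 and KDR were both among the dimmest 40% of probe sets. The levels of PECAM1 and VWF, also in that list, are not given here, so the endothelial markers are not described as a whole.

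**Figure D2:**
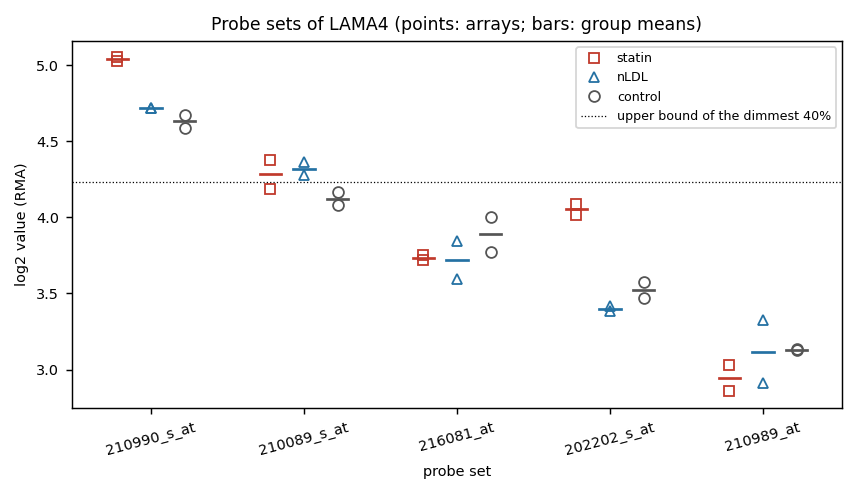
Log2 values of the 5 LAMA4 probe sets (x axis) on the 6 arrays, with statin squares, nLDL triangles and control circles, group means as bars and the bound of the dimmest 40% at 4.23 as a dotted line. Probe sets run from the brightest at left to the dimmest at right. In the first and the fourth both statin arrays lie above the other four, and in the others the statin and nLDL arrays overlap.

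Among the remaining laminin chains, LAMC3 came nearest to the threshold. It lay at 5.32 and 5.19 with statin, 5.14 and 5.07 with nLDL, and 4.76 and 4.88 in control, so that control was the lowest group. Its statin minus control difference was 0.44 ± 0.09 (95% interval 0.23 to 0.65) with a limma adjusted p of 0.054. Over the alternatives this difference ran from 0.21 to 0.51. The second probe set of LAMC3, among the dimmest 40%, gave -0.03 with a limma adjusted p of 0.90. LAMC3 was chosen for description after its values were seen, as were the genes in the rest of this paragraph. The gamma chain LAMC1 gave -0.02 (95% interval -0.20 to 0.16), a value that turned to 0.04 with a second quantile normalisation. The second probe set of LAMC1 lay at 8.19 and 8.22 with statin, 8.34 and 8.26 with nLDL, and 8.38 and 8.32 in control. Its statin minus control difference was -0.15 with a limma adjusted p of 0.371. LAMB1 and LAMB2, a beta chain of vessel, kidney and synaptic laminins, had both statin arrays below both controls, with differences of -0.16 (95% interval -0.34 to 0.02) and -0.18, and neither passed. LAMA5 differed from control by 0.10.

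Among the brighter integrin alpha chains the differences had either sign. ITGAV stood at -0.25 ± 0.09 (95% interval -0.46 to -0.04) and ITGAE at -0.24 ± 0.08 (95% interval -0.42 to -0.06) for statin minus control, with limma adjusted p of 0.195 and 0.155. Both were called lower when the prior variance was made to follow the level, the only such calls by an adjusted p among the alternatives run. ITGA2, the chain of a collagen and laminin receptor, lay at 7.40 and 7.46 with statin, 7.16 and 7.18 with nLDL, and 7.24 and 7.25 in control, a difference from control of 0.18 with a limma adjusted p of 0.259. ITGA5, the fibronectin receptor chain, and ITGA6, a laminin receptor chain, differed by 0.16 and 0.10, and ITGA1, the other collagen and laminin receptor chain among the bright genes, by -0.12. In the RefSeq annotation ITGA1 overlaps PELO, and whether its brightest probe set reads transcripts of PELO was not tested. The second probe set of ITGA1 by level gave 4.92 and 4.92 with statin, 5.11 and 5.23 with nLDL, and 5.28 and 5.28 in control, a difference of -0.36 with an adjusted p of 0.071. None of these passed the test.

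Of the dimmer alpha chains, ITGAM, a chain of the complement receptor of myeloid cells, had the largest difference of the family at 0.51, but also the widest interval (0.07 to 0.96). Its values were 4.62 and 4.82 with statin, 4.34 and 4.54 with nLDL, and 4.50 and 3.91 in control, so that control array 2 stood apart, and the limma adjusted p was 0.209. Without that array the difference was 0.22, smaller than those of LAMC3 and LAMA4 without it. Of the myeloid markers in the list of other cell types, the transcription factor SPI1 was among the dimmest 40% of probe sets, at 3.33 and 3.47 with statin, 3.26 and 3.66 with nLDL, and 3.54 and 3.54 in control. LYZ, encoding lysozyme, was the brightest of the 18 markers, at 13.26 and 13.40 with statin, 12.89 and 12.87 with nLDL, and 12.93 and 12.94 in control, with both statin arrays above the other four. CD14 lay at 6.04 and 6.15 with statin, 6.29 and 6.26 with nLDL, and 6.48 and 6.22 in control, with both statin arrays the lowest. All arrays were of 1 cell line, and which cells carried the ITGAM transcripts was not tested. ITGA10, a collagen receptor chain of cartilage, lay at 4.72 and 4.76 with statin, 4.71 and 4.72 with nLDL, and 4.53 and 4.35 in control, a statin minus control difference of 0.30 with an adjusted p of 0.132.

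The beta chains, which decide the cytoplasmic partners of the receptor, showed no call in any contrast. ITGB1 differed by -0.05 between statin and control, with a 95% interval of -0.24 to 0.14, and ITGB5 by 0.09 (limma adjusted p 0.597). The second probe set of ITGB1 by level gave -0.22 with an adjusted p of 0.31. ITGB8, which pairs with ITGAV in a receptor that activates latent TGF-beta, lay at 7.97 and 7.96 with statin, 7.71 and 7.87 with nLDL, and 7.84 and 7.82 in control. ITGB4, the partner of ITGA6 in hemidesmosomes, differed by 0.20 with the statin arrays above both controls, and did not pass.

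**Figure D3:**
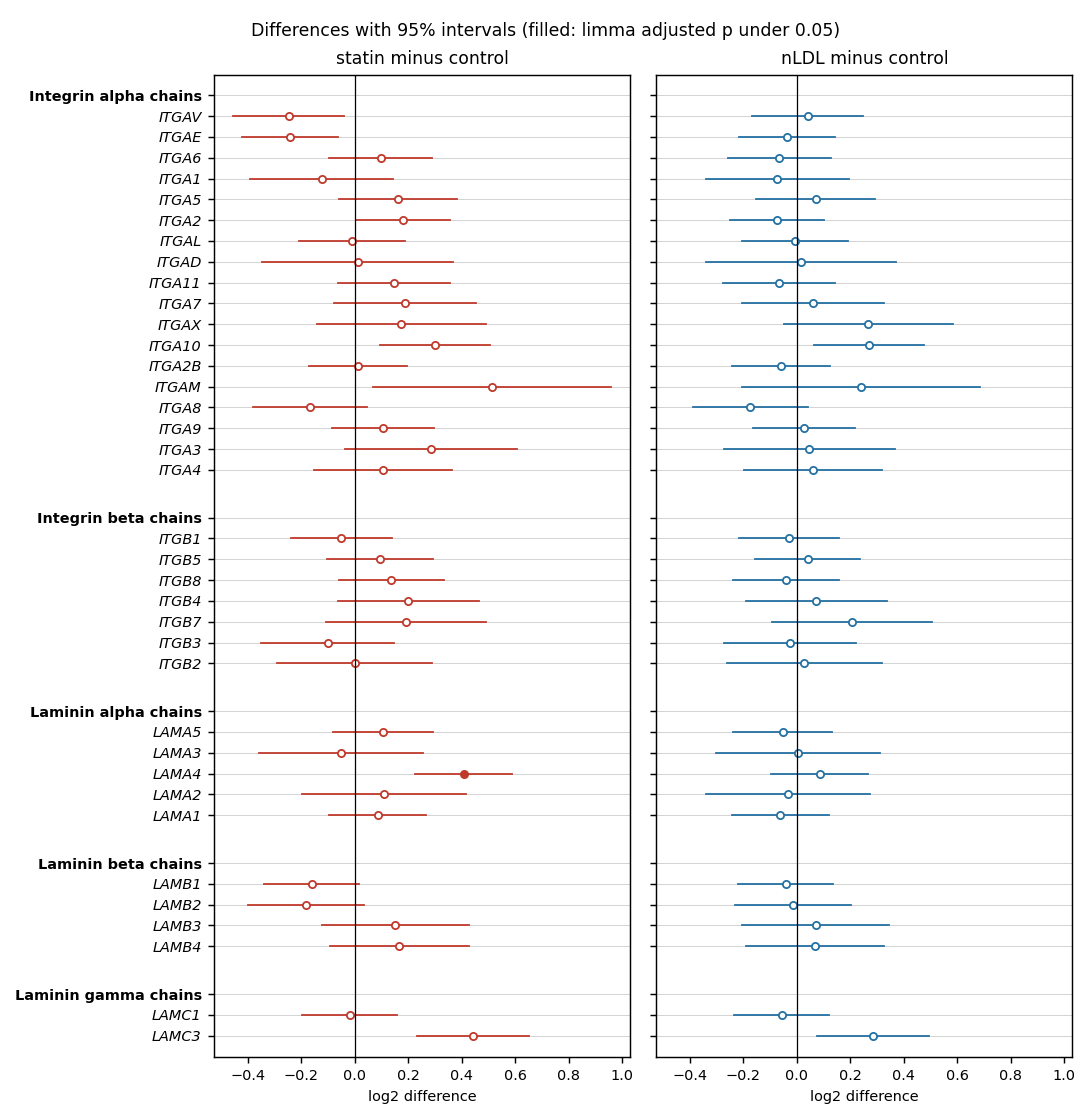
Log2 differences (x axes) of 36 of the 37 genes (y axis), statin minus control on the left and nLDL minus control on the right, with 95% intervals from the limma fit. The filled point is LAMA4, the 1 gene past an adjusted p of 0.05. Most intervals on both sides cross 0.

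Treatment with nLDL asked the opposite question, whether loading with cholesterol changed the same transcripts. None of the 37 genes was called, and the lowest limma adjusted p among them was 0.798. In this contrast 0% of all probe sets and genes were called by limma, and 6.15% of probe sets had an unadjusted p under 0.05. At that unadjusted level 2 of the 37 genes were found, LAMC3 with a difference of 0.28 and ITGA10 with 0.27, or 5.41%, against 5.17% of all genes. The nLDL arrays lay wholly above the controls for 5 genes and wholly below for 9, together 37.8%, where 35.8% of all genes did so. The differences spanned -0.17 to 0.28 with a median of 0.00, and 32 of 37 lay within 0.2 of 0, or 86.5%, against 90.1% of all genes. Among the 13 subunit genes in the brightest 30%, which include ITGB1, ITGAV, ITGB5, ITGA6, LAMA5, LAMB1 and LAMC1, every difference lay between -0.08 and 0.07. Their median size without sign was 0.042, near the 0.043 over all genes in the brightest 30%, of which 97.8% lay within 0.2 of 0. LAMC3 and ITGA10 were also above control with statin, and both contrasts use the same 2 control arrays.

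Statin was also set directly against nLDL. None of the 37 genes was called, against 3.51% of all genes and 2.44% of all probe sets (1.04% higher and 1.41% lower), and 5 had an unadjusted p under 0.05 (3 higher and 2 lower), or 13.5%, against 19.2% of all genes and 16.3% of all probe sets. The groups were apart for 18 genes, 13 with statin above and 5 with statin below, or 48.6%, against 50% of all genes. The differences spanned -0.29 to 0.32, and 30 of 37 lay within 0.2 of 0, or 81.1%, against 75.8% of all genes. LAMA4 was nearest to the threshold with a statin minus nLDL difference of 0.32 and a limma adjusted p of 0.0914, followed by ITGA2 with 0.25 (0.152) and ITGAV with -0.29 (0.165). The dim LAMA4 probe set described above, the fourth in level, passed at 0.65 with an adjusted p of 0.0137. The second, the third and the fifth in level gave -0.04, 0.02 and -0.17 for statin minus nLDL, and none of these passed.

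For 14 genes of the family at least 2 probe sets lay above the dimmest 40%, so the reading of a gene could be checked against another part of its transcript. All such probe sets of a gene had the same sign in 9 of 14 genes for statin minus control, in 8 for nLDL minus control and in 7 for statin minus nLDL. The highest and the lowest of them were apart by a median of 0.14, 0.07 and 0.16 in these contrasts. For statin minus control the largest gap was 0.25. For statin minus control this median gap of 0.14, over 14 genes, was close to the median size of a difference. That size, taken without sign over all 37 genes, was 0.15.

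Among genes that act with the receptors, some had larger statin minus control differences than any subunit. FLNA, the filamin that links integrin tails to actin, fell with statin to 6.61 and 6.73, against 7.52 and 7.35 with nLDL and 7.41 and 7.45 in control, a statin minus control difference of -0.76 ± 0.09 with a limma adjusted p of 0.0142. It was the 1 called gene of 32 adhesion adaptors, or 3.12%, against 3.75% of all genes. The median difference of the adaptors was -0.01. VCL, encoding vinculin of focal adhesions, differed by -0.42 with an adjusted p of 0.0677. Without either statin array or either control array the call on FLNA was lost, with differences of -0.82 to -0.70 and adjusted p up to 0.136.

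Of 18 basement membrane partners and other laminin receptors, 2 were lower and none higher with statin, with a median of 0.01. The called genes were 11.1% of the list, against 3.75% of all genes called in either direction. NID2, one of the nidogens that bridge laminin to type IV collagen, lay at 4.30 and 4.76 with statin, 5.75 and 5.51 with nLDL, and 5.77 and 5.43 in control, a difference of -1.07 ± 0.18 with a limma adjusted p of 0.0326. The other gene was COL4A6, a type IV collagen chain (-0.56, adjusted p 0.0303), whose probe set is among the dimmest 40%. Both calls were lost when any single array was left out, with adjusted p of 0.0545 to 0.177 for NID2 and 0.0551 to 0.179 for COL4A6. With the mean over its probe sets COL4A6 differed by -0.21 (adjusted p 0.208). NID1, the other nidogen, differed by -0.25 (adjusted p 0.192) and DAG1, the laminin receptor dystroglycan, by -0.04.

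Among 26 other ligands of integrins 5 fell with statin and none rose, while the median of the list was 0.06. The called genes were 19.2% of the list, against 3.75% of all genes called in either direction. SPP1, which encodes osteopontin, lay at 6.62 and 7.11 with statin, 8.30 and 8.07 with nLDL, and 8.25 and 8.17 in control, a difference of -1.35 ± 0.16 with a limma adjusted p of 0.0142. NPNT, encoding nephronectin, a ligand of the integrin made of ITGA8 and ITGB1, lay at 8.17 and 8.14 with statin, 8.79 and 8.75 with nLDL, and 8.73 and 8.71 in control, a difference of -0.57 ± 0.07 with an adjusted p of 0.017. The others were the matricellular genes CCN2 (-2.28), CCN1 (-2.11) and THBS1 (-0.70, adjusted p 0.0408), whereas FN1, encoding fibronectin, and VTN, encoding vitronectin, differed by 0.12 and 0.10 and did not pass. Leaving out each array in turn, CCN2 passed in 6 of 6 fits, CCN1 in 4, SPP1 in 3, NPNT in 2 and THBS1 in 0. The calls of CCN1, SPP1 and NPNT were lost without either control array, those of SPP1 and NPNT also without statin array 1 and that of NPNT also without statin array 2, with adjusted p of up to 0.0614 for CCN1, 0.117 for SPP1 and 0.146 for NPNT, and that of THBS1 whichever array was left out, at 0.0611 to 0.23. With the mean over the probe sets of a gene the differences shrank to -0.76 for SPP1, -0.28 for NPNT and -0.28 for THBS1, and NPNT then had an adjusted p of 0.091.

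No gene of these 3 lists was called for nLDL minus control. For statin minus nLDL 1 adaptor, 1 basement membrane gene and 4 ligands were lower. These were 3.12%, 5.56% and 15.4% of their lists, against 3.51% of all genes called in either direction. The lists were chosen by function with earlier results of these data known, so their counts describe them and do not set them apart from other genes.

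**Figure D4:**
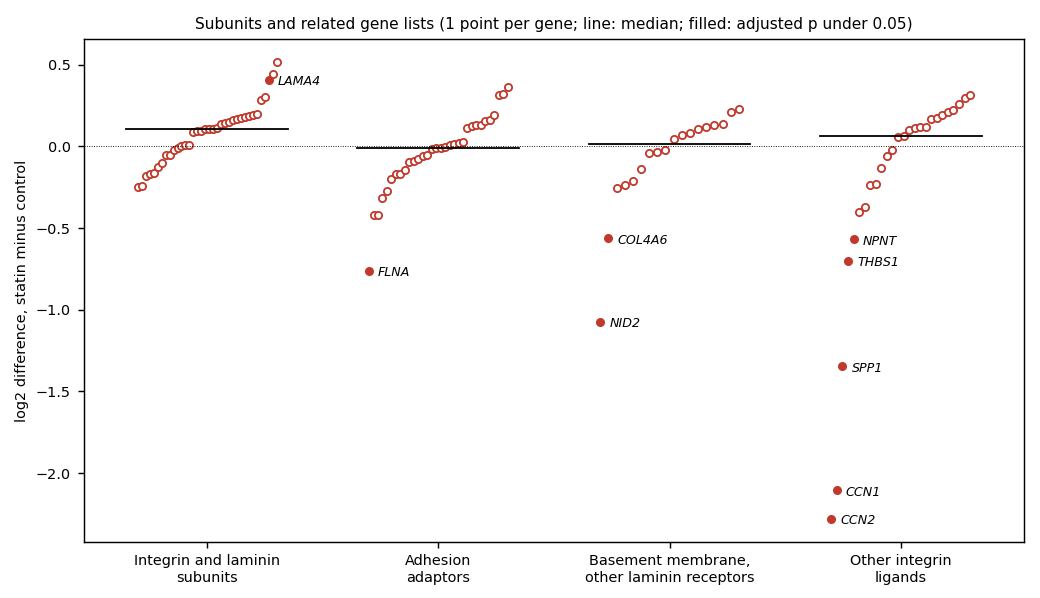
Statin minus control log2 differences (y axis) of 36 of the 37 subunit genes and of the 3 lists of adaptors, basement membrane genes and other ligands (x axis), 1 point per gene, with the median of the points as a line. Filled points passed a limma adjusted p of 0.05. The subunits span -0.25 to 0.51, whereas the ligand list reaches down to -2.28.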

How the data were processed

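Total RNA of Huh7 cells was hybridised to Affymetrix U133 Plus 2.0 arrays, 2 per group. The authors normalised the raw data by robust multi-array averaging in GeneSpring GX 11.5, per the submitters' processing notes, and deposited log2 values per probe set. Array values have no counting depth, and their number limits the precision. A second deposited table repeated the values of all 54675 probe sets in 6 columns whose headers matched no sample label. These columns were not used as samples, and its annotation, of a release not given in the sources used here, named the probe sets.

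Without the 62 control probe sets, the test covered 54613, of which 43383 had 1 symbol, 1663 several and 9567 none. The 37 members were matched to RefSeq by Entrez number (GRCh38.p14). Groups followed the treatment labels. The 3 group means were estimated in one fit by limma 3.58.1 under R 4.3.3 (lmFit, contrasts.fit and eBayes, two-sided, 3 residual and 4.08 prior degrees of freedom), with Benjamini-Hochberg adjustment across every probe set tested and calls at 0.05. Intervals are at 95% from the same fit. With 2 against 2 an exact permutation test reaches a two-sided p of 0.333 at best and was not used. The procedure was tested on simulated data, with independent normal noise drawn from the variances of the same fit and differences added to few probe sets. For statin minus control, 49.6% of added differences of -0.5 and 46% of those of 0.5 were called. Of those of -1, 99.4% were called. On average 6.02% of the simulated calls in this contrast were false. These shares hold under the assumptions of the fit and are not the error rate of the calls reported here.

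Given in full were the members called in any contrast and the 2 with the brightest probe sets among integrin alpha chains, integrin beta chains and laminins, as well as up to 6 called genes per list. Some genes that the rule or the counts include are not reported here by name. Other members are named where their values were seen to stand apart. The members and lists were chosen with earlier results of these data known. As alternatives, the replicate number was fitted as a block, and further fits used other normalisations, a filter on dim probe sets, another prior, the compared groups only, the methods' t-test, gene means over probe sets, or 5 of the 6 arrays.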

Additional observations from a re-analysis of the deposited data

How the results depend on the processing

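Each contrast was refitted under 16 alternatives. Probe sets called for statin minus control numbered 1429, against 820 with the replicate block, 2745 without the dimmest 40% of probe sets, 4954 with a trended and robust prior, 607 with only the groups compared, 6191 with the methods' t-test unadjusted at a fold of 1.1 and 0 after Benjamini-Hochberg, and 45 to 607 when 1 array was left out. For nLDL minus control they were 0, against 58 with the trended prior and 1982 with the unadjusted methods' test. For statin minus nLDL they were 1334, against 2367, 4464, 458, 5100 and 2 for the dim filter, the trended prior, the compared groups, the unadjusted methods' test and its adjusted form, and 45 to 458 with 1 array left out.

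Of the subunit genes, 1 was called for statin minus control. That count was 0 with the replicate block, a second quantile normalisation, median centring, cyclic loess, only the groups compared, the methods' test after adjustment, the mean over probe sets and each array left out in turn (0 to 0). It was 2 without the dimmest 40% (LAMA4 and LAMC3), 4 with the trended prior (LAMC3 higher, ITGAV, ITGAE and LAMB1 lower) and 6 with the unadjusted methods' test. For statin minus nLDL the count of 0 became 1 without the dimmest 40% (LAMA4), 2 with the trended prior (ITGAV and ITGAE lower) and 3 with the unadjusted methods' test. The nLDL minus control count was 0 under all 16. LAMA4 kept a statin minus control difference above 0 throughout (0.15 to 0.45, adjusted p 0.0194 to 0.267) and its call under 2 alternatives, the dim filter and the unadjusted methods' test. The cause of these changes was not tested.

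At least 1 alternative turned the sign of 11 of the 37 subunit genes for statin minus control, of 24 for nLDL minus control and of 21 for statin minus nLDL, none of them a called difference. For the subunit genes given in full, the turned values were as follows. LAMC1 for statin minus control became 0.036 with a second quantile normalisation and 0.026 with cyclic loess, and ITGB1 for statin minus nLDL became 0.00081 with cyclic loess. With the mean over probe sets, ITGB1 and LAMA4 for nLDL minus control became 0.00041 and -0.0048, and LAMC1 for statin minus nLDL became -0.029. With 1 array left out the ranges were -0.051 to 0.011 for LAMC1 (statin minus control), -0.019 to 0.099 for ITGAV, -0.076 to 0.016 for ITGB1 and -0.019 to 0.10 for ITGB5 (nLDL minus control), and -0.067 to 0.026 for ITGB1 and -0.0066 to 0.11 for ITGB5 (statin minus nLDL).

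Over all probe sets, the replicate 1 minus replicate 2 differences correlated between groups at 0.087 at most, and the numbers were not taken as pairs. This correlation cannot show whether some genes shared a deviation of same-numbered arrays. With the replicate block 820 probe sets were called for statin minus control, 0 for nLDL minus control and 909 for statin minus nLDL, and LAMA4 had an adjusted p of 0.0736. For statin minus control the called genes ranged over the alternatives from 0 to 6 of the adaptors, 0 to 4 of the basement membrane genes and 0 to 11 of the other ligands. Dim probe sets carry little signal, and 2 arrays a group limit every call.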

Other observations

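Some subunit genes lie next to one another in the RefSeq annotation. LAMB1 and LAMB4 are neighbours on chromosome 7, and ITGAM, ITGAX and ITGAD on chromosome 16. LAMB1, in the brightest 30% of probe sets, and LAMB4, in the dimmest 40%, had statin minus control differences of -0.16 and 0.17. The 3 leukocyte integrin chains ITGAM, ITGAX and ITGAD had 0.51, 0.17 and 0.01. None of these passed.

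ITGA8, the receptor chain for nephronectin, had a dim probe set, the second of 4 by level, at 3.64 and 3.56 with statin, 3.47 and 3.46 with nLDL, and 3.21 and 3.18 in control, a difference of 0.40 at a limma adjusted p of 0.047. Its brightest probe set gave -0.17 and did not pass, so the gene was not counted as changed.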
